A study of Rattus norvegicus with 36 samples.

Results

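The calcitonin and neuroendocrine genes of the thyroid C cells were described as 7 genes, Calca, Calcb, Chga, Chgb, Ret, Scg2 and Scg3, in the thyroid glands of 36 rats. All probes whose transcript accession belonged to one of the 7 symbols were taken, which gave 10 probes of the 30367 non-control probes on the array, and 7 genes of the 15154 with a symbol. The rats were adult male Sprague Dawley rats that received an intravenous injection of the radioisotope 131I in saline, in 8 irradiated groups that were given 9, 88, 170 or 260 kBq or, at the higher end, 340, 760, 1300 or 4700 kBq, beside mock-treated controls (0 kBq). Each group held 4 rats, all were killed after 24 h, and total RNA of each gland was hybridised to 1 Agilent 1-colour array. The groups were injected by rising activity and the controls last, so injection order and group cannot be told apart.

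C cells, or parafollicular cells, are neuroendocrine cells that lie between the hormone-producing follicles of the thyroid and release calcitonin, a peptide that lowers blood calcium, from dense-core granules. Calca encodes calcitonin and, by alternative splicing, the neuropeptide alpha-CGRP, and Calcb encodes beta-CGRP. Chga, Chgb, Scg2 and Scg3 encode granins, acidic proteins that build and load such granules in many endocrine and nerve cells, and Ret encodes the receptor tyrosine kinase for ligands of the GDNF family, whose activating mutations cause medullary thyroid carcinoma, the tumour of C cells. Radioiodide is taken up by the follicular cells and not by C cells themselves, so the follicular signal was read beside the 7 genes, with the probe of Iyd, the deiodinase that recovers iodide from iodotyrosines. The levels are log2 intensities relative to the 75th percentile of the same array, and since probes differ in brightness they were compared between rats and not between genes.

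The probe sequences were not used here, so which splice form of Calca a probe reads was not known. For the genes with a RefSeq promoter entry, which were Calca, Chgb, Ret, Scg2 and Scg3 (5 of 7), the 250 bases before the transcription start were searched on both strands for TGACGTCA, the palindromic cAMP response element, for TGACGCAA, a variant of it, and for TGACG, which both contain. TGACGTCA occurred in Scg2 and in 1.59% of the 33469 promoters of the same length, TGACGCAA occurred in Calca and in 0.436%, and TGACG occurred in Calca, Scg2 and Scg3 and in 18.2%. The promoters of Calca and Scg2 are shown because they hold the longer motifs, which the other 3 do not, and Chgb and Ret hold none of the 3 motifs. Capitals mark the longer motif (RefSeq, GRCr8, written from 5′ to 3′ on the minus strand, chr1:178317530-178317779 for Calca and chr9:88256867-88257116 for Scg2).
Calca: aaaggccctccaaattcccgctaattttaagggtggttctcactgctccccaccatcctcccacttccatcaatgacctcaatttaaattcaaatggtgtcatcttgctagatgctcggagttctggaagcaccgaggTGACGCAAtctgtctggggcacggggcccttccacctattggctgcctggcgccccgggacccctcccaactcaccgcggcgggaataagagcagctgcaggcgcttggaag
Scg2: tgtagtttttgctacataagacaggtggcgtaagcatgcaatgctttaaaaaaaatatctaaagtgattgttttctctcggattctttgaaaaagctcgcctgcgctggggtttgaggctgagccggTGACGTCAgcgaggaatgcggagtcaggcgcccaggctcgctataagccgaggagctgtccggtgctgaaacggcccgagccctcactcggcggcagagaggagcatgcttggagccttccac
The motif began 112 bases before the start in Calca and 123 bases before it in Scg2. These are matches of letters only, and binding at them was not measured.

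The 36 rats fell apart in their follicular signal. Iyd ranged from -8.21 to 1.45, and sorted by level the largest gap, 3.02 or 31.3% of the range, lay between -3.28 and -0.26, with 18 rats above it and 18 below. The mean of 13 follicular genes, such as Tg for thyroglobulin, was 0.93 to 2.42 in the rats above the gap and -5.25 to -1.06 in those below. Iyd itself is among the 13, so its own separation was fixed by the split. Of the 13, 3 overlapped between the sets. Tg was 6.78 to 7.48 above and -4.51 to 6.83 below, Duox2, a subunit of the hydrogen peroxide source for hormone synthesis, was 1.29 to 3.62 above and -4.06 to 1.32 below, and Slc26a4 was well above background in only 1 of the 36 rats. The rats above the gap were 3 of 4 controls, 1 of 4 at 9 kBq, 2 of 4 at 88, 170, 260, 760 and 1300 kBq, 1 of 4 at 340 kBq and 3 of 4 at 4700 kBq. The listed genes of muscle, airway and squamous epithelium, cartilage, fat, nerve and parathyroid were each well above background in at least 1 rat. Some were so in few rats, such as the nerve gene Phox2a in 3 of the 36. The mean of 5 fast muscle genes was 6.41 to 8.1 in the rats below the gap and -3.36 to 7.09 in those above. In such bulk samples, fewer cells of a type and less RNA per cell cannot be told apart. Of the 5 slides, each held 2 to 5 rats above the gap, and of the 2 scan days, which held 16 and 20 rats, 10 and 8 were above it.

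Calca separated the same rats. The level of the brighter Calca probe (A_64_P018761) was 3.93 to 7.7, with a median of 6.72, in the 18 rats above the Iyd gap, and -8.51 to -1.71, with a median of -5.23, in the 18 below, so the ranges did not overlap. It was well above background, by the call of the scanner software, in all 18 rats above the gap and in 14 of the 18 below. The other Calca probe (A_64_P018766) was -2.25 to 5.22 above the gap and -9.17 to -5.59 below, where it was well above background in 1 of 18 rats. Of the 10 probes of the 7 genes, 4 had all rats above the gap higher than all rats below it, namely both Calca probes, Chgb and Scg3, which is 40.0% of the probes against 3.41% of all 30268 probes with a value on every array. This count describes rats ordered by a measured gene, and no test was made of it.

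**Figure D1:**
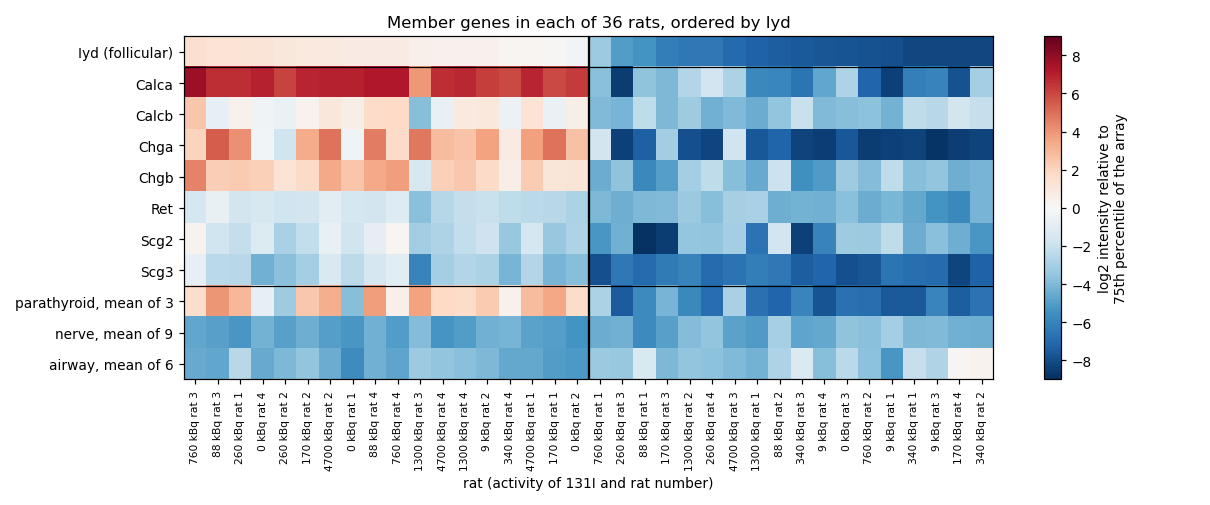
Level of Iyd, of the 7 genes (brightest probe per gene) and of the mean of 3 lists of other tissues in each of the 36 rats, as log2 intensity relative to the 75th percentile of the array (colour). Rats are ordered by Iyd from left to right, and the vertical line marks the gap between -0.26 and -3.28. Calca is at 3.93 or higher left of the line and at -1.71 or lower right of it.

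The granins and Ret were less sharply divided. Chgb, chromogranin B, ranged from -1.41 to 4.49 above the gap and from -5.77 to -1.95 below. Scg3, secretogranin III, ranged from -6.0 to -0.74 above and from -8.24 to -6.01 below, so its ranges met almost end to end. Chga, chromogranin A, ranged from -1.81 to 5.47 above and from -8.83 to -1.63 below, where only 3 of 18 rats were well above background. Calcb was well above background in all 36 rats, at -3.83 to 2.5 above the gap and at -4.48 to -1.67 below. Its single low value above the gap, -3.83, belonged to 1300 kBq rat 3. The 3 Ret probes overlapped between the sets, the brightest (A_64_P154019) with -3.78 to -0.7 above and -5.78 to -2.89 below. Scg2, secretogranin II, was -3.42 to 0.34 above the gap and -8.89 to -1.74 below, with 12 of the 18 rats above the gap under the highest rat below it and 5 of the 18 below the gap over the lowest rat above it.

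By group, the Calca level of single rats followed this division at every activity. In the controls it was 6.9, 6.27, -2.8 and 6.95 in rats 1 to 4, and at 9 kBq it was -8.43, 6.25, -6.02 and -4.67. At 88 kBq it was -3.6, -5.9, 6.64 and 7.21. Each group thus held both high and low rats. At 170 kBq the 4 values were 5.91, 6.86, -4.03 and -7.87, at 260 kBq they were 6.64, 6.11, -8.51 and -1.71, and at 340 kBq they were -6.14, -3.07, -6.57 and 5.96. The single high rat at 340 kBq was the one above the Iyd gap. At 760 kBq the values were -3.77, -7.11, 7.7 and 7.22, at 1300 kBq they were -5.79, -2.67, 3.93 and 6.76, and at 4700 kBq they were 6.87, 6.96, -2.85 and 6.67. In order of their means the groups were 4700 kBq at 4.41 ± 4.84 (SD, n = 4), the controls at 4.33 ± 4.76, 88 kBq at 1.09 ± 6.81, 760 kBq at 1.01 ± 7.58, 260 kBq at 0.63 ± 7.19, 1300 kBq at 0.56 ± 5.79, 170 kBq at 0.22 ± 7.3, 340 kBq at -2.45 ± 5.82 and 9 kBq at -3.22 ± 6.5. No neighbours in this order differed by more than their SD.

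**Figure D2:**
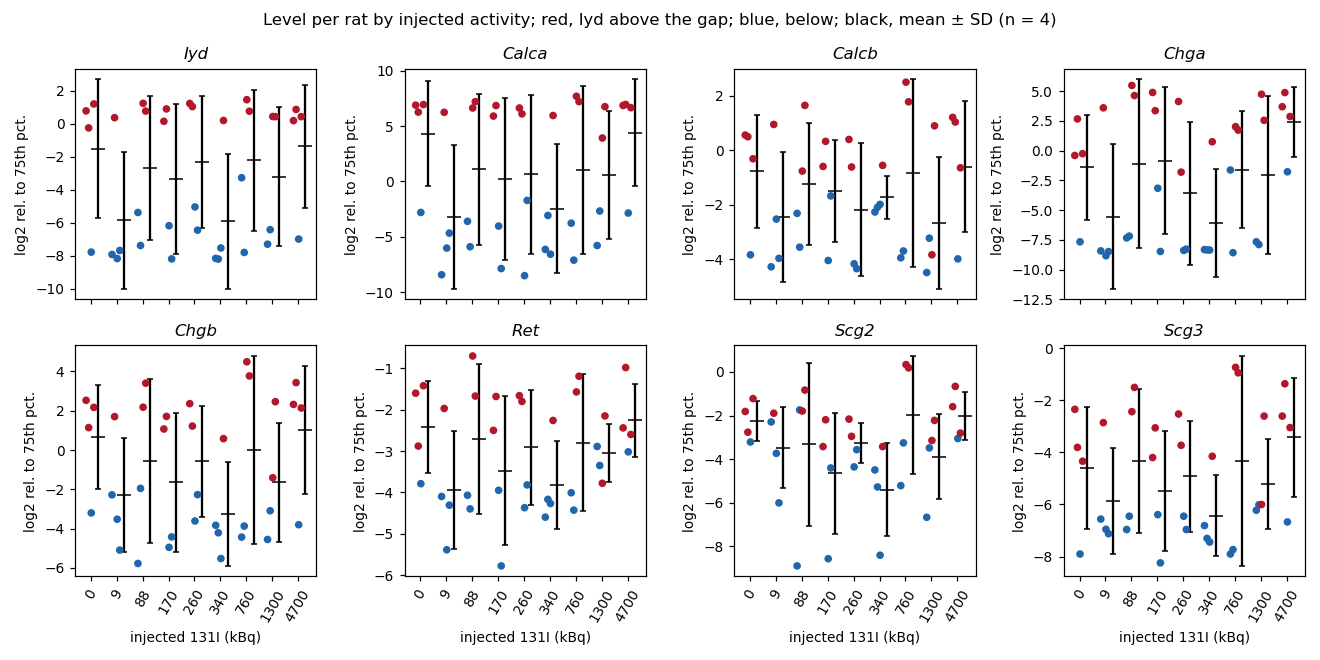
Level of Iyd and of the 7 genes (y axis, log2 intensity relative to the 75th percentile of the array) in each rat by injected 131I in kBq (x axis, groups evenly spaced). Red points are rats above the Iyd gap, blue points rats below it, and black marks are the mean ± SD of the 4 rats of a group. Every group holds red and blue rats, and the SD of Calca is between 4.76 and 7.58 in all 9 groups.

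To ask whether 131I changed the 7 genes, the 8 irradiated groups were each set against the controls in limma over all probes. A regulated probe had to differ by 1.5-fold or more and to have an adjusted p-value below 0.01. In each of the 8 comparisons 0 of the 10 probes were regulated, and so were 0% of all 30367 probes. At an unadjusted p-value under 0.05, 1 of the 10 was lower at 340 kBq, against 0.438% of all probes, and 0 of the 10 were lower in the other comparisons, against 0.454% at 9 kBq, 0.372% at 88 kBq, 0.201% at 170 kBq, 0.336% at 260 kBq, 0.148% at 760 kBq, 0.339% at 1300 kBq and 0.372% at 4700 kBq. None of the 10 were higher, while of all probes 2.77%, 2.99%, 2.16%, 0.787%, 13.2%, 1.5%, 3.84% and 1.28% were, from 9 to 4700 kBq in order. Over all 9 groups at once, limma's F test called 0 of the 10 probes at an adjusted p-value under 0.01 (adjusted p-values of 0.989 to 0.99), against 0.0132% of all probes, and 0 of the 10 at an unadjusted p-value under 0.05, against 2.69%.

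The median log2 ratio of the 7 genes against the controls was -1.68 at 9 kBq, -0.47 at 88 kBq, -1.05 at 170 kBq, -1.23 at 260 kBq, -3.14 at 340 kBq, -0.2 at 760 kBq, -1.62 at 1300 kBq and 0.22 at 4700 kBq. The median of all probes in the same comparisons was between 0.03 and 0.31. By the brightest probe of each gene, all 7 were lower than in the controls at 9, 260, 340 and 1300 kBq. At 88 and 760 kBq 5 were lower, at 170 kBq 6 were, and at 4700 kBq all 7 were higher. Each amount missed the test. The dimmest Ret probe (A_44_P480153) was instead higher at 88, 170, 260, 760 and 1300 kBq, by 0.52, 0.12, 0.1, 0.36 and 0.01. The 2 groups with the lowest means of Calca, 9 and 340 kBq, were those with 1 rat of 4 above the Iyd gap, and the 4700 kBq group and the controls had 3 of 4. The median of the 13 follicular genes was -3.6 at 9 kBq and -3.93 at 340 kBq, and 0.14 at 4700 kBq. The part of the follicular signal in the ratios of the 7 genes was not tested.

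For single genes the standard errors were wide. For Calca the ratio was -7.55 at 9 kBq and -6.78 at 340 kBq with an SE of 4.32, and the exact two-sided permutation p-value was 0.0571 in both, where 0.0286 is the smallest that 4 against 4 rats can give. At 88, 170, 260, 760 and 1300 kBq it was -3.24, -4.11, -3.7, -3.32 and -3.77 (exact p-values of 0.4, 0.2, 0.457, 0.543 and 0.257). A log2 ratio of -1 or lower was seen for 9 of the 10 probes at 9 kBq and for 8 at 340 kBq, against 3.85% and 3.74% of all probes. It was seen for 4 at 88 kBq, 5 at 170 kBq, 6 at 260 kBq, 2 at 760 kBq, 5 at 1300 kBq and 0 at 4700 kBq, against 1.71%, 2.38%, 1.97%, 2.12%, 4.17% and 3.55%, and a ratio of 1 or higher for 2 of the 10 at 4700 kBq, against 2.1%. The 10 probes read the same few rats, so these counts are not independent of each other. For Chgb the ratio was -2.95 at 9 kBq, -1.19 at 88 kBq, -2.3 at 170 kBq, -1.23 at 260 kBq, -3.9 at 340 kBq and -2.3 at 1300 kBq (SE 2.3), with a lowest exact p-value of 0.0571, at 340 kBq.

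Scg2 was the gene with p under 0.05 at 340 kBq, and the one whose 4 rats all lay below all 4 controls. Its levels there were -4.49, -5.27, -8.4 and -3.42, against -1.81, -2.76, -3.21 and -1.22 in the controls. The log2 ratio was -3.14 with an SE of 1.5, the exact permutation p-value was 0.0286, and limma's adjusted p-value was 0.35, so it did not pass. Of all probes, 0.304% lay wholly below the controls in this comparison, and the mean of 9 nerve genes was -4.72 to -4.02 at 340 kBq and -5.36 to -3.63 in the controls. At 9, 88, 170, 260 and 1300 kBq the Scg2 ratio was -1.23, -1.06, -2.39, -1 and -1.62. The exact p-values were 0.286, 0.914, 0.114, 0.171 and 0.171 in that order. At 760 and 4700 kBq the ratio was 0.27 and 0.22, higher than in the controls (exact p-values of 0.914 and 0.743).

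Chga had ratios of either sign, -4.12 at 9 kBq, -2.17 at 260 kBq and -4.65 at 340 kBq, but 3.82 at 4700 kBq (SE 3.78). None passed, with exact p-values of 0.371, 0.543, 0.286 and 0.229. In the controls its levels were -0.41, 2.66, -7.66 and -0.26, and at 4700 kBq they were 3.68, 4.87, -1.78 and 2.86, so 3 rats at 4700 kBq lay above every control. The mean of the 3 parathyroid genes was -6.73 to 1.66 in the controls and -2.95 to 3.26 at 4700 kBq. For Calcb the ratio was -1.68, -1.4 and -1.88 at 9, 260 and 1300 kBq (SE 1.58), for Ret -1.52, -1.05 and -1.4 at 9, 170 and 340 kBq (SE 0.94), and for Scg3 -1.27, -1.83 and 1.17 at 9, 340 and 4700 kBq (SE 1.66). Their exact p-values were 0.143 or higher. The dimmest Ret probe gave -0.51, 0.12 and -0.5 at 9, 170 and 340 kBq.

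Since no pooled correlation is meaningful over sets of rats that lie apart, relations between genes were computed within the 18 rats above and the 18 rats below the Iyd gap, 26 relations in all, by permutation of the rats with Benjamini-Hochberg adjustment over the 26. In the 18 rats above the gap, 5 of the 6 other genes passed with Calca with adjustment over the 26. With adjustment over all 30266 probes, chosen after the values were seen, 3 of the 6 did, Chgb, Calcb and Scg3, against 0.347% of all probes with a positive r. Chgb followed it with r = 0.94 (rho = 0.91, permutation p = 1e-05, the smallest the permutations can give, adjusted p = 0.00013). Calcb had r = 0.89 (rho = 0.74, permutation p = 2e-05, adjusted p = 0.000173). Scg3 had r = 0.85 (rho = 0.75, permutation p = 1e-05, adjusted p = 0.00013). Scg2 had r = 0.72 (rho = 0.91, permutation p = 0.00016, adjusted p = 0.00104), and Ret had r = 0.73 (rho = 0.66, permutation p = 0.00127, adjusted p = 0.0055), and over all probes their adjusted p-values were 0.061 and 0.206. Chga, by contrast, had r = -0.16 with Calca (rho = -0.19, permutation p = 0.531, adjusted p = 0.686).

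Several of these values leaned on 1 rat, and the checks separate them. In 1300 kBq rat 3, Iyd was 0.43 and Tg 7.43, while Calca was 3.93, Calcb -3.83, Chgb -1.41, Ret -3.78 and Scg3 -6.0, each the lowest of the 18 rats, and Chga was 4.73 and Pth 6.95. Without this rat, r with Calca was 0.93 for Chgb, 0.9 for Scg2, 0.8 for Scg3, 0.74 for Calcb and 0.06 for Chga. For Ret it was 0.49 and the call was lost (adjusted p = 0.105). Without the 2 rats farthest from the median of Calca, r was 0.9 for Chgb, 0.86 for Scg2, 0.74 for Scg3, 0.64 for Calcb and 0.52 for Ret. No slide held 6 rats of a set, so no value within a slide could be had. With slide means removed, r was 0.95 for Chgb, 0.89 for Calcb, 0.86 for Scg3, 0.76 for Ret and 0.73 for Scg2.

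**Figure D3:**
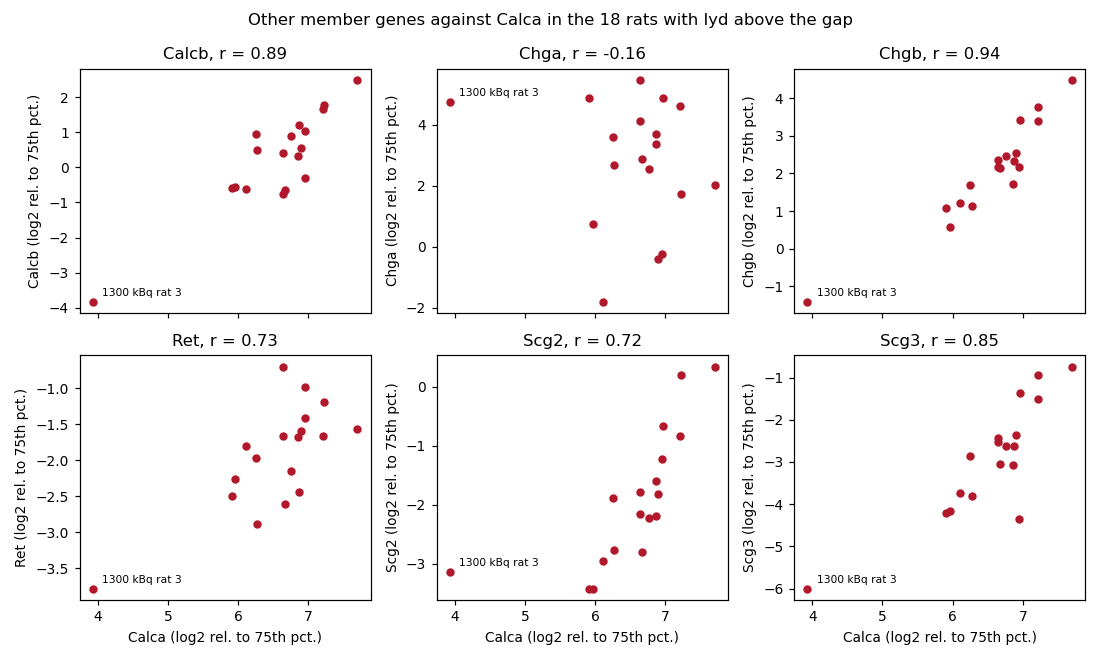
Levels of the other 6 genes (y axes) against Calca (x axes) in the 18 rats above the Iyd gap, each in log2 intensity relative to the 75th percentile of the array, 1 point per rat. Chgb lies close to a line (r = 0.94), Chga does not (r = -0.16), and 1300 kBq rat 3 lies at the low end of Calca in every panel.

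Within the same 18 rats Ret was the gene that passed with Iyd, with r = 0.7 (rho = 0.76, permutation p = 0.00095, adjusted p = 0.00494), and r was 0.69 without the 2 rats farthest from the median of Iyd and 0.71 with slide means removed. Ret also followed the mean of the 13 follicular genes, which include Iyd (r = 0.65, adjusted p = 0.0469). That call was lost with slide means removed (r = 0.54, adjusted p = 0.126). For Calca r with Iyd was 0.43 (adjusted p = 0.165), for Chgb 0.49 (adjusted p = 0.0928), for Scg2 0.55 (adjusted p = 0.0597), for Scg3 0.42, for Calcb 0.19 and for Chga -0.15. Ret also passed with adjustment over all probes (adjusted p = 0.0118), as did 10.9% of all probes with a positive r. Whether a gene's relation with Iyd differs from its relation with Calca was not tested.

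Genes that share the granule pathway were read against Calca in the same 18 rats, for 41 genes with a probe in 4 lists that were chosen with results of these data known. With adjustment over the 41, 10 genes passed with a positive r and 0 with a negative one, and with adjustment over all probes 6 of the 41 did, against the 0.347% of all probes. Of 17 genes for prohormone processing and granules, 7 did, among them Pcsk2, the convertase that cleaves prohormones (r = 0.92, rho = 0.97, permutation p = 1e-05, adjusted p = 0.000102), its relative Pcsk1 (r = 0.69, adjusted p = 0.00369), the convertase inhibitor Pcsk1n (r = 0.85, adjusted p = 0.000102), and Cadps, which primes dense-core granules for release (r = 0.68, adjusted p = 0.00299). Ptprn, a granule membrane protein, had r = 0.68 (adjusted p = 0.0219), the monoamine transporter gene Slc18a1 had r = 0.85 and Ddc, the decarboxylase that makes serotonin and dopamine, had r = 0.8 (adjusted p = 0.000137 in both). The 2 genes of that list with the highest mean did not pass, Ptprn2 with r = 0.17 and Cpe, carboxypeptidase E, with r = 0.45.

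Of 9 other C cell genes 3 passed with Calca over the 41, the transcription factor Foxa2 (r = 0.94, rho = 0.95, adjusted p = 0.000102), Gfra4, the co-receptor through which Ret binds persephin (r = 0.87, rho = 0.97, adjusted p = 0.000102), and the hormone Sst, somatostatin (r = 0.61, adjusted p = 0.00838). Isl1, among the highest of the list in mean level, had r = 0.08 and did not pass. Gfra4 was the only one of 8 RET ligands and co-receptors to pass, and Nrtn and Gfra2 had r = 0.15 and r = 0.42. Of 8 calcitonin family peptides and receptors 0 passed, with r = -0.47 for Ramp1 and r = 0.07 for Crcp. These 10 genes kept r between 0.56 and 0.95 whichever of the 18 rats was left out. In the comparisons with the controls, 0 genes of these 4 lists were regulated in any irradiated group. At an unadjusted p-value under 0.05, Vgf, a granule peptide precursor, was lower at 170 and 4700 kBq, as were 0.201% and 0.372% of all probes. Calcrl, Gdnf, Pam and Syt1 were higher in 1 to 3 groups each, with adjusted p-values of 0.278 or higher. These groups were among 9, 88, 170, 340 and 760 kBq, where 2.77%, 2.99%, 2.16%, 13.2% and 1.5% of all probes were higher.

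The genes most like Calca differed with the rats taken. Over all 36 rats, among 14799 probes well above background on at least 9 arrays, they were Abcg3l1, Pgr, Nsun7, Rprm, Aass, Serpinb6b, Ccdc148, Usp51, Slc26a7 and Ambn, with r from 0.96 to 0.968, values that rest on the distance between the 2 sets of rats. Within the 18 rats above the gap they were Sftpd, Resp18, Foxa2, Kcnk16, Bpifb2, Scgn, Cyp2r1, Pcsk2, Slc45a1 and Ina, with r from 0.892 to 0.951. None of the 10 genes was in both lists. These are the highest of many values and carry no test.

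Chga followed genes of another gland. Each of the 7 genes was set against the mean of 9 lists of other tissues within both sets of rats, 126 relations that were chosen after the values were seen, with adjustment over the 126. Above the gap, Chga followed the 3 parathyroid genes with r = 0.96 (rho = 0.98, permutation p = 1e-05, adjusted p = 0.000315), and with adjustment over all probes its adjusted p was 0.00688, with 0.287% of all probes passing. All 3 genes took part, with r = 0.95 for Gcm2, the transcription factor that makes parathyroid cells, 0.84 for Casr, the calcium-sensing receptor, and 0.72 for Pth, parathyroid hormone. The parathyroid gland lies against the thyroid and stores chromogranin A together with its hormone, and Casr is also known in C cells. The mean of the 3 genes ranged from -3.8 to 3.95 in these rats. In 260 kBq rat 2 and 0 kBq rats 1 and 4, Chga was -1.81, -0.41 and -0.26, the 3 lowest values of the set. There Gcm2 was -9.26, -6.79 and -8.25, Pth -0.93, -6.8 and 4.04, Casr 0.62, 2.18 and 1.95, and Calca 6.11, 6.9 and 6.95. In 760 kBq rat 4 Gcm2 was also low, at -7.66, while Chga was 1.72 and Pth 5.94. The relation had r = 0.95 with slide means removed, 0.92 with group means removed and 0.94 to 0.98 with any 1 rat left out.

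Below the gap Chga split the rats again. In 170 kBq rat 3, 760 kBq rat 1 and 4700 kBq rat 3 it was -3.16, -1.63 and -1.78 and well above background, with Pth at 0.03, 2.22 and 2.12. In the other 15 rats Chga was -8.83 to -7.18 and not well above background. The correlation with the parathyroid mean over all 18 (r = 0.91, adjusted p = 0.00147) therefore rests on these 3 rats, and among the other 15 it was r = 0.23 (permutation p = 0.405). Gcm2 was not high in the 3 rats, at -8.51, -8.17 and -8.26. With adjustment over all probes Chga did not pass below the gap (adjusted p = 0.931), nor did any probe, 0%. A lone probe at the smallest permutation p could not have passed there, and 0.0033% of all probes had an r as high as Chga. Above the gap Chga did not pass with Calca, but in the 3 rats with its lowest levels there it still lay above -7.18, the highest of the 15. Its cell source was not tested.

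**Figure D4:**
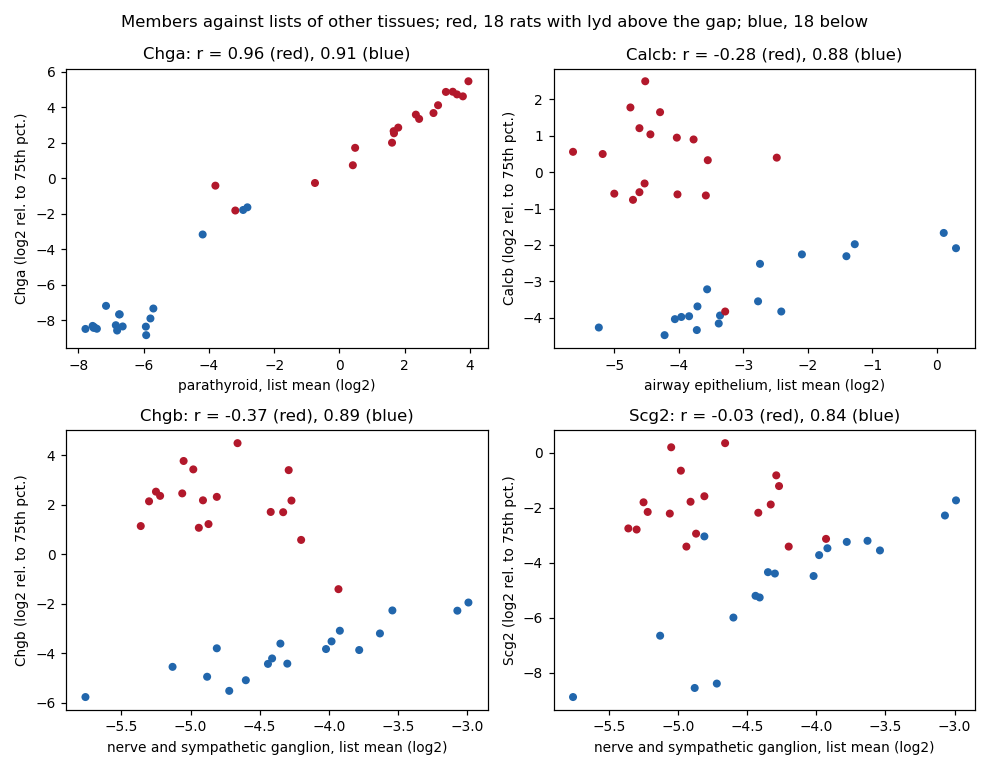
Levels of Chga, Calcb, Chgb and Scg2 (y axes) against the mean of lists of parathyroid, airway or nerve genes (x axes), all in log2 intensity relative to the 75th percentile of the array, 1 point per rat. Red points are the 18 rats above the Iyd gap and blue points the 18 below, with r = 0.96 for red Chga, 0.88 for blue Calcb, 0.89 for blue Chgb and 0.84 for blue Scg2.

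In the 18 rats below the gap, where Calca was low, Chgb, Scg2, Calcb and Ret were related to lists of other tissues, and Scg3 to none of the 9 (adjusted p-values of 0.165 or higher). None of the 13 relations with Iyd or Calca passed there, and the highest were r = 0.58 of Chga with Iyd and r = 0.53 of Ret with Calca (adjusted p = 0.0597 in both). Chgb instead followed the mean of 9 genes of nerve and sympathetic ganglion with r = 0.89 (rho = 0.87, adjusted p = 0.000315), and Scg2 did with r = 0.84 (rho = 0.81, adjusted p = 0.000315). Both also passed with adjustment over all probes (adjusted p = 0.0168 in both), as did 0.149% of all probes. Of the 9 genes, 9 had a positive r with Chgb and 8 with Scg2. The single values ran from 0.04 to 0.84 with Chgb and from -0.06 to 0.77 with Scg2, so not all 9 took part. Toward the upper end were Dbh, which makes noradrenaline, with r = 0.76 and 0.77, and Prph, peripherin, with r = 0.81 and 0.76. Granins are known in the granules of sympathetic neurons. With the mean of 4 cartilage genes, r in these rats was 0.62 for Chgb and 0.63 for Scg2. Neither passed over the 126 relations (adjusted p = 0.0562 and 0.054). The nerve mean ranged from -5.76 to -2.99 in these rats. At its low end, 88 kBq rat 1 had Scg2 at -8.89, Chgb at -5.77 and Dbh at -8.72, and at its high end 88 kBq rat 2 had Scg2 at -1.74, Chgb at -1.95 and Dbh at -1.65.

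Calcb followed the 6 airway genes in the rats below the gap, with r = 0.88 (rho = 0.88, adjusted p = 0.000315), and 5 of the 6 had a positive r. With adjustment over all probes it did not pass (adjusted p = 0.121), nor did any probe, 0%, although a lone probe at the smallest permutation p could not have passed there. Over the 6 genes r with Calcb ran from -0.28 to 0.91. The highest belonged to Bpifa1, a secreted protein of the airway lining, and Scgb1a1 of the same list had r = 0.6. The airway mean ranged from -5.24 to 0.3. In 170 kBq rat 4, with the highest Calcb of the set, -1.67, Bpifa1 was 7.27, and in 1300 kBq rat 1, with the lowest, -4.48, it was -1.31. Above the gap r of Calcb with the airway mean was -0.28. Whether the relations differ between the sets was not tested. Ret followed the 5 fast muscle genes below the gap with r = 0.79 (rho = 0.66, adjusted p = 0.00147), and over all probes its adjusted p was 0.000637, where 27.3% of all probes passed with a positive r and 11.3% had an r as high.

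In all, 10 of the 126 relations with lists passed with adjustment over the 126. Those of Chga, Chgb, Scg2, Calcb and Ret with parathyroid, nerve, airway and fast muscle genes also passed with slide or group means removed and with any 1 rat left out, 6 in number. Among them, Chga with parathyroid genes below the gap rested on 3 rats, which leaving out 1 rat cannot show. For Ret with fast muscle genes, 11.3% of all probes had an r as high. The other 4 were borderline. They were Ret with follicular genes, Chgb and Scg3 with cartilage genes above the gap (r = -0.64 and -0.65, adjusted p = 0.0468 in both) and Ret with squamous genes below it (r = -0.64, adjusted p = 0.0407), and each lost its call when any 1 of several rats, 3 to 15 in number, was left out.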

How the data were processed

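Total RNA from 36 rat thyroid glands, 4 per group, was read on 1 Agilent 1-colour array per rat. The intensity values are those the authors deposited as scanner output (Agilent Feature Extraction 10.7.3.1 per the file headers), with background subtracted and no scaling between arrays. The authors' own matrix, which they deposited too, holds quantile normalised intensity and served as an alternative. The submitters' processing notes name Partek. Groups were taken from the sample labels.

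Control spots and outlier spots (331 to 1365 per array) were left out, and 0 spots were saturated. The 75th percentile of each array (1564 to 4288 on the linear scale) was subtracted from log2 intensity, and replicate spots were averaged per probe. Between 62.6% and 91% of the probes were well above background, and precision is limited by how many arrays there were. Probes were named by RefSeq accession, which gave 17998 of 30367 a symbol. The probe with the highest mean stood for a gene. Of the listed genes, 9 had no probe.

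Groups were compared in 1 limma fit (limma 3.58.1, R 4.3.3) of all 36 arrays with Benjamini-Hochberg adjustment per comparison. On simulated data for 9 kBq against 0 kBq with 30268 probes, 99.3% of the changes of at least 4 SD between rats were called. Of the smaller changes, 16.4% were called. The measured Calca ratio at 9 kBq, -7.55, was under 4 SD. The SD of Calca was 6.5 in that group and 4.76 in the controls. The 99.3% therefore does not describe Calca, and a missing call for a gene with such spread does not show that it was unchanged. Relations used 100000 permutations, and all tests were two-sided (scipy, Python 3.11.15). The labels do not say more of the replicates than that each is 1 animal, and p-values measure the spread between these animals.

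All 10 probes of the 7 genes are described. Log2 ratios are given for at least 1 in size or for rats not overlapping the controls, and of other lists the 2 genes with the highest mean are named, except 1 that is not reported here. Further genes named were chosen after their values were seen. The members and lists were chosen with earlier results of these data known. Alternatives were quantile normalisation, median centring, normexp (offset 50, on median signals since mean signals were not among the columns), the authors' matrix, the mean over probes, a filter on dim probes, a block for slide or for rat number, fitting 2 groups alone, trend and robust options, array weights, other thresholds, and leaving out each rat. The lists of other tissues as relations, and the adjustment of relations over all probes, were added after the data were seen.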

Additional observations from a re-analysis of the deposited data

Results flagged for a closer look

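In each group of 4 rats, the highest or lowest level of a gene was marked where its gap to the nearest other rat, divided by the range of the group, exceeded Dixon's critical value for 4 samples. Of 63 groups (7 genes in 9 groups) 8 were marked. The rule marks about 1 in 20 by chance only if values are independent and normally distributed. Here the rats fell into 2 sets and the 7 genes read the same rats, so the 8 cannot be set against that rate. Calca was far below the rest of its group in 4700 kBq rat 3 (gap over range 0.97, level -2.85 against 6.67 to 6.96) and in 0 kBq rat 3 (0.93, -2.8 against 6.27 to 6.95), the single rats of these groups below the Iyd gap. Calcb was high in 340 kBq rat 4 (0.837, -0.55 against -2.26 to -1.98). Chga was high in 9 kBq rat 2 (0.967, 3.59 against -8.83 to -8.42) and in 340 kBq rat 4 (0.996, 0.74 against -8.35 to -8.31), and Scg3 was high in 9 kBq rat 2 (0.868, -2.86 against -7.12 to -6.56). Both of these were the single rats of their groups above the gap. Scg3 was also high in 1300 kBq rat 4 (0.939, -2.61 against -6.22 to -6.0), and Scg2 was low in 88 kBq rat 1 (0.88, -8.89 against -1.79 to -0.83), and in each of these groups 2 rats were above the gap.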

How the results depend on the processing

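In all comparisons with the controls, 0 probes of the 7 genes were regulated under every alternative run, and the median log2 ratio of the 7 genes moved by less than the SD between rats of 2.73, although its sign changed in some settings at 88 kBq (-1.6 to 0.55), 760 kBq (-2.78 to 0.8) and 4700 kBq (-0.3 to 1.97). Elsewhere it ranged from -3.33 to -1.25 at 9 kBq, -1.98 to -0.66 at 170 kBq, -2.62 to -0.11 at 260 kBq, -3.95 to -1.91 at 340 kBq and -2.74 to -0.69 at 1300 kBq. With a replicate block the median stayed -3.14 at 340 kBq, and no call changed. Rats sharing a number did not vary together (median r of deviations -0.027, other numbers -0.03), and 8 of 36 samples correlated best with their own number. Single log2 ratios changed sign with slide as a block at 88 kBq (Calca 0.47, Chgb 0.04) and 260 kBq (Chga 0.49, Chgb 0.0) and with array weights (Scg2 at 88 kBq, 0.08), and at 88 kBq with 1 rat left out, where Chgb was -2.5 to 0.55 and Scg2 -1.89 to 0.8, both positive without 88 kBq rat 1. None of these ratios had passed the test. Below the Iyd gap, weak correlations with Calca changed sign. For Chgb, r was 0.03 with quantile normalisation, 0.02 with median centring and with the authors' matrix, 0.11 with normexp and with the mean over probes, and -0.19 to 0.15 with 1 rat left out. For Scg3 it was -0.01 with quantile normalisation, -0.02 with the authors' matrix, 0.0 with group means removed and -0.14 to 0.16 with 1 rat left out, and so changed Calcb (-0.25 to 0.02), Scg2 (-0.2 to 0.01) and the correlation of Scg3 with Iyd (-0.03 to 0.48). Above the gap, r of Calcb with Iyd was -0.05 with group means removed, and r of Chga with Calca was 0.12 without the 2 rats farthest from the median and -0.28 to 0.06 with 1 rat left out. Of the relations with Calca 5 had passed, and 4 to 6 did under the alternatives, with Ret lost without the 2 farthest rats (r = 0.52) and without 1300 kBq rat 3 (r = 0.49). Of the relations with Iyd 1 had passed, and 4 did with median centring, 3 with normexp, 4 with group means removed, 2 with slide means removed and 1 to 2 with 1 rat left out. The causes were not tested. Levels of probes not well above background, such as Chga in most rats below the gap, have no reliable order.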
